A study of Mus musculus with 2 samples.

Results

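The regions described here are sites of STAT5 binding that lie at the starts of gene pairs on opposite strands. A region is a stretch that the authors' peak calling reported as bound, called an interval in the deposited table. A region was taken when its position was within 1000 bp of the starts of at least 2 listed genes of opposite strand. Of the 5703 distinct regions of the IL-2 library in the table, 229 met this rule, which is 4.02% of all regions and 14.6% (Wilson 95% interval 12.9 to 16.4%) of the 1569 regions within 1000 bp of any listed start. Among regions called in the IL-2 library the rule used positions only, but each had to be called in that library to be listed.

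STAT5 binding was measured by chromatin immunoprecipitation and sequencing (ChIP-seq) with an anti-STAT5 antibody, in an assay that the labels name as one for STAT5A. The IL-2 library came from cells incubated with IL-2 at 0.5 µg/ml over 1 hour, and 1 control library from cells that received no IL-2. Cells of both groups were effector CD8 T cells on the C57BL/6 strain, carrying the OT-I T cell receptor transgene, which recognises the ovalbumin peptide SIINFEKL. All had been transferred into mice and primed there with that peptide and with agonists to CD134 and CD137, which are costimulatory receptors. Spleen cells were sorted 4 days later. With 1 library in each group no difference between IL-2 and control had a replicate check, and none was tested. The table, which lists 4934 genes, held regions near 9 of 9 T cell marker genes looked up (among them Cd8a, Cd3e and Lck). It held regions near 0 of 6 markers of other blood cells. The share of all mouse genes that it lists is not given here, so these counts have no background and do not check cell identity. Of all these markers, 0 had their start at a region of the class described here. A region near a gene is not a measure of its expression.

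STAT5 is a latent transcription factor that the IL-2 receptor activates through JAK kinases. Its dimers bind the palindromic letters TTCNNNGAA, known as a GAS element. A divergent gene pair is transcribed outward from a shared stretch of promoter DNA. Such bidirectional promoters are common in mammals, are usually rich in CpG and poor in TATA boxes, and often serve genes of DNA repair, mitochondria and RNA processing.

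The GAS letters were searched in RefSeq promoter windows (build GRCm38.p6, the same genome as mm10). These run from 250 bases before to 50 bases after a gene start. Only 73 of the 229 regions had their position in such a window. The rest, among them Spata5/Nudt6 (IL-2 height 153) and 5730420D15Rik/Socs2 (127), could not be searched at their position. Of the 73, the regions with a known height and no match in the window reached at most 27 in the IL-2 library. All 12 regions above 27 thus had a match, which follows from setting the limit at that height. The 11 stretches shown here were chosen because they hold a match, and their regions had IL-2 heights of 20 to 116. Each is written 5′ to 3′ on the strand of the gene named, with the GAS match nearest to the region position in capitals.
Mrpl30, chr1:37890350-37890390, plus strand: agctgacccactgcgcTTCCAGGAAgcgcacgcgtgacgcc
Ripk1, chr13:34002750-34002790, plus strand: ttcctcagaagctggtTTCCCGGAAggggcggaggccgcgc
4732416N19Rik, chr6:148212197-148212237, plus strand: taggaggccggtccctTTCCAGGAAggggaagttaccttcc
Kbtbd3, chr9:4309797-4309837, plus strand: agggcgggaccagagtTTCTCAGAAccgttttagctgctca
Ccdc59, chr10:105841459-105841499, plus strand: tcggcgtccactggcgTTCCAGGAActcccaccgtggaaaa
Wdr77, chr3:105959288-105959328, plus strand: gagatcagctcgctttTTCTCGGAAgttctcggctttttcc
Cct5, chr15:31601890-31601930, minus strand: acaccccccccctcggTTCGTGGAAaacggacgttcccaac
Jmjd7, chr2:120027393-120027433, plus strand: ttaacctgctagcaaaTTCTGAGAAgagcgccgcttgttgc
Ddx51, chr5:110653350-110653390, plus strand: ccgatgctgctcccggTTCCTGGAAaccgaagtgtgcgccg
Smc6, chr12:11265797-11265837, plus strand: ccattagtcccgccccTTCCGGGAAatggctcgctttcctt
Nbr1, chr11:101552527-101552567, plus strand: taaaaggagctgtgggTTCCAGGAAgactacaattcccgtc
The first 8 of these belong to regions with IL-2 heights of 42 to 116, and the last 3 to Ddx51/Noc4l, Smc6/Gen1 and Nbr1/Brca1, with heights of 38, 33 and 20. The centre of the match lay from 5 bp (Jmjd7) to 130 bp (Mrpl30) from the region position in these 11. Region positions mostly fall on a grid of 16 bp (95.5% of all regions), so such distances are coarse.

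The promoter window of Ripk1, which encodes a kinase of tumour necrosis factor receptor signalling, is shown whole because it held 2 matches, both in capitals. The region position was 186 bp before the Ripk1 start.
Ripk1, chr13:34002624-34002923, plus strand: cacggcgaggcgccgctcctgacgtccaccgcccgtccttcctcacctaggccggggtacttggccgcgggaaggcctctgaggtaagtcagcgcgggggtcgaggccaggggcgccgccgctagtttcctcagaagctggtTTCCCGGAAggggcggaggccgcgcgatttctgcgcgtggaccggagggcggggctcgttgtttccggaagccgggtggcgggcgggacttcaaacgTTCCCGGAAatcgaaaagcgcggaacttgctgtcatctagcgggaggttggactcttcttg
The window of Tyw5, an enzyme of tRNA modification, is shown beside it because its region had the lowest ratio of all divergent-start regions with a height and the window held no match. The region position was 62 bp before the Tyw5 start.
Tyw5, chr1:57406625-57406924, minus strand: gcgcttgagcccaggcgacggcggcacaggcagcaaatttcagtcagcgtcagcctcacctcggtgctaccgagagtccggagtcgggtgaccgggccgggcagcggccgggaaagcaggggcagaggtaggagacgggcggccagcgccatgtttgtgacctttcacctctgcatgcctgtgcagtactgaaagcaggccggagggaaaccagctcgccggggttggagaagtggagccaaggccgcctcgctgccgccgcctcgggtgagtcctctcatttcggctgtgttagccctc
At Ripk1/Serpinb6a the height was 114 in the IL-2 library and 5 in the control library. At 9430016H08Rik/Tyw5 it was 10 in the IL-2 library and 7 in the control library. The first pair was among the highest of the class in the IL-2 library, and the second was 1 of 9 regions at its lowest IL-2 height.

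Peak heights were in the authors' signal units, and were read only from genes with 1 region, where the gene mean is the height of that region. This gave a height for 185 of the 229 regions, while 44 had none. Over these 185 the height was 10 at the lowest, 16 at the median and 153 at the highest in the IL-2 library, against 1, 5 and 10 in the control library. The IL-2 height was above the control height in 185 of 185, as it was in 2245 of 2245 regions of all kinds with a height. The 2 ranges met only at 10. The log2 ratio was computed as log2 of (IL-2 height + 5)/(control height + 5), which understates the ratio of low heights. Its median was 1.22 (interquartile range 0.93 to 1.81).

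A ratio of at least 2 was found for 135 of the 185 regions at divergent starts (73%, Wilson interval 66.2 to 78.9%). The background share was 80.4% of all 2245 regions with a height, 75.9% of the 1019 at any start, 76.6% of the 826 at single starts and 84.3% of the 1226 with no start in reach. No region of any of these classes had a ratio of at most 0.5. Thus the count at divergent starts lay near the background and below it. Every region was listed because a peak was called in the IL-2 library, so a higher IL-2 height was built into the table. With IL-2 heights rescaled so that the libraries had equal medians, 83 of the 185 had the higher value in the IL-2 library and 102 in control, against 1228 of all 2245 regions higher in the IL-2 library. This rescaling shifted the median log2 ratio of all regions by -1.28. The median log2 ratio was then -0.03 at divergent starts and 0.04 over all regions. No source used here gives how the authors scaled the libraries, so the direction of the overall difference rests on that scaling.

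**Figure D1:**
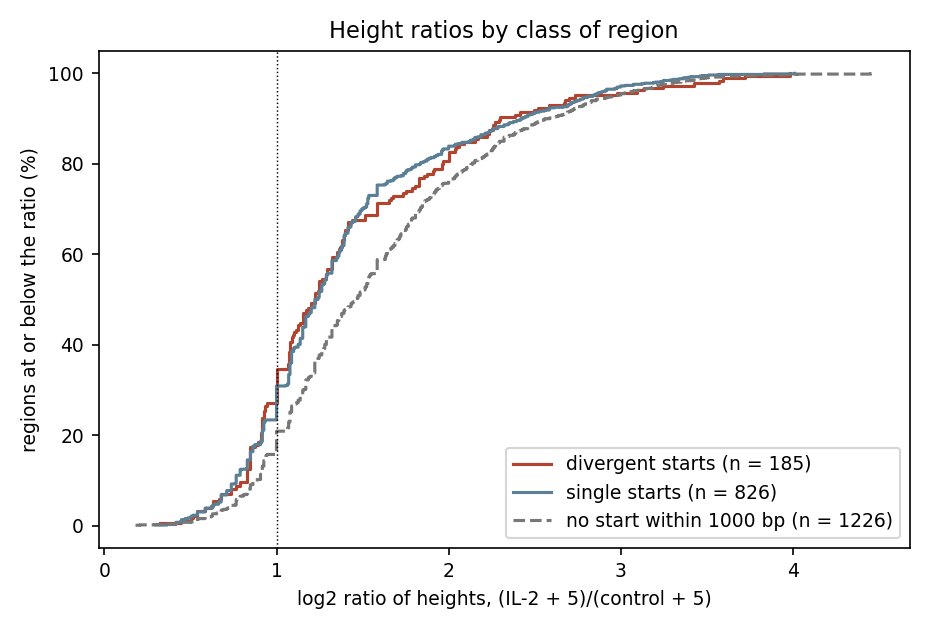
Share of regions (vertical axis, %) at or below each log2 ratio of heights (horizontal axis), for regions at divergent starts, at single starts and with no start within 1000 bp; the dotted line marks a ratio of 2. The curves for divergent and single starts run close together, with medians of 1.22 and 1.23, and the curve for regions with no start lies to their right, with a median of 1.46.

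Set beside regions at single starts, those at divergent starts had the same median IL-2 height, 16 in both classes, with upper quartiles of 27 at divergent and 24.75 at single starts. The control medians were 5 at divergent and 4 at single starts. An IL-2 height of at least 50 was reached by 18 of 185 regions at divergent starts (9.73%), against 8.54% at any start, 8.35% at single starts, 12.5% with no start and 10.7% of all regions. The highest IL-2 height was 153 at divergent starts and 124 at single starts. These are counts in 1 pair of libraries, and the differences were not tested.

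The strongest regions at divergent starts belonged to pairs of varied function. In the 20 regions with the largest ratio the IL-2 heights ran from 42 to 153 and the control heights from 3 to 9, and the separation of these ranges follows from the choice by ratio. In 14 of the 20 both genes were protein-coding, and in 5 a protein-coding gene faced a long non-coding RNA. The region of Spata5/Nudt6 led, with 153 in the IL-2 library and 5 in control (log2 ratio 3.98). Spata5 encodes an AAA ATPase and Nudt6 a nudix hydrolase. The region lay on chromosome 3 at 37420352, 72 bp inside Spata5 and 762 bp upstream of Nudt6. Second was the pair of Socs2, a feedback inhibitor of cytokine signalling, and the non-coding 5730420D15Rik. Its region on chromosome 10 at 95416928 lay between the starts, 71 bp upstream of Socs2 and 447 bp upstream of its partner, and had 127 in the IL-2 library and 5 in control.

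Several other pairs of the 20 held listed genes. Mrpl30, a protein of the mitochondrial ribosome, pairs with Mitd1, which acts in the last step of cell division. Their region had 116 in the IL-2 library and 5 in control, 171 bp inside Mitd1. Psmc2, an ATPase of the proteasome cap, and Dnajc2, a ribosome-associated chaperone, shared a region with 79 in the IL-2 library and 9 in control. Its control height was tied for the second highest at any divergent start, among others with those of Nufip1 and Fam60a. Cct5, a subunit of the CCT chaperonin, and Fam173b had 55 in the IL-2 library and 4 in control, at a position between their starts. Atp5f1, a subunit of ATP synthase, and Wdr77, a partner of the arginine methyltransferase Prmt5, had 57 in the IL-2 library and 6 in control. Here the starts overlap in the table, so that each gene runs across the start of the other.

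Further strong regions lay at pairs whose genes have various roles. That of Ergic2, a protein of the ER to Golgi route, and the non-coding 4732416N19Rik had 90 in the IL-2 library and 5 in control. That of Kbtbd3 and Aasdhppt, an enzyme that adds the phosphopantetheine group, had 89 in the IL-2 library and 6 in control. Asb7, a SOCS box protein, and Lins had 74 in the IL-2 library and 4 in control. Control heights were low and alike at these 3 pairs. Rbm27, an RNA-binding protein, and Gm4013 had 81 in the IL-2 library and 3 in control. Smc4, a core subunit of condensin, and Ift80, of intraflagellar transport, had 54 in the IL-2 library and 7 in control. Tpt1, which encodes the translationally controlled tumour protein, and Gm4285 had 65 in the IL-2 library and 6 in control. Arl1, a GTPase of the Golgi, and Gm4925 had 60 in the IL-2 library and 5 in control. The non-coding Rn7sk, which holds the elongation factor P-TEFb in an inactive complex, and C920006O11Rik had 44 in the IL-2 library and 5 in control. The remaining 6 of the 20 were Ccdc59/Mettl25, Spsb3/Nubp2, Fam187b/Lsr, Oxnad1/Dph3, Gm17399/Cmc1 and the Ripk1 pair, with IL-2 heights of 42 to 114.

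**Figure D2:**
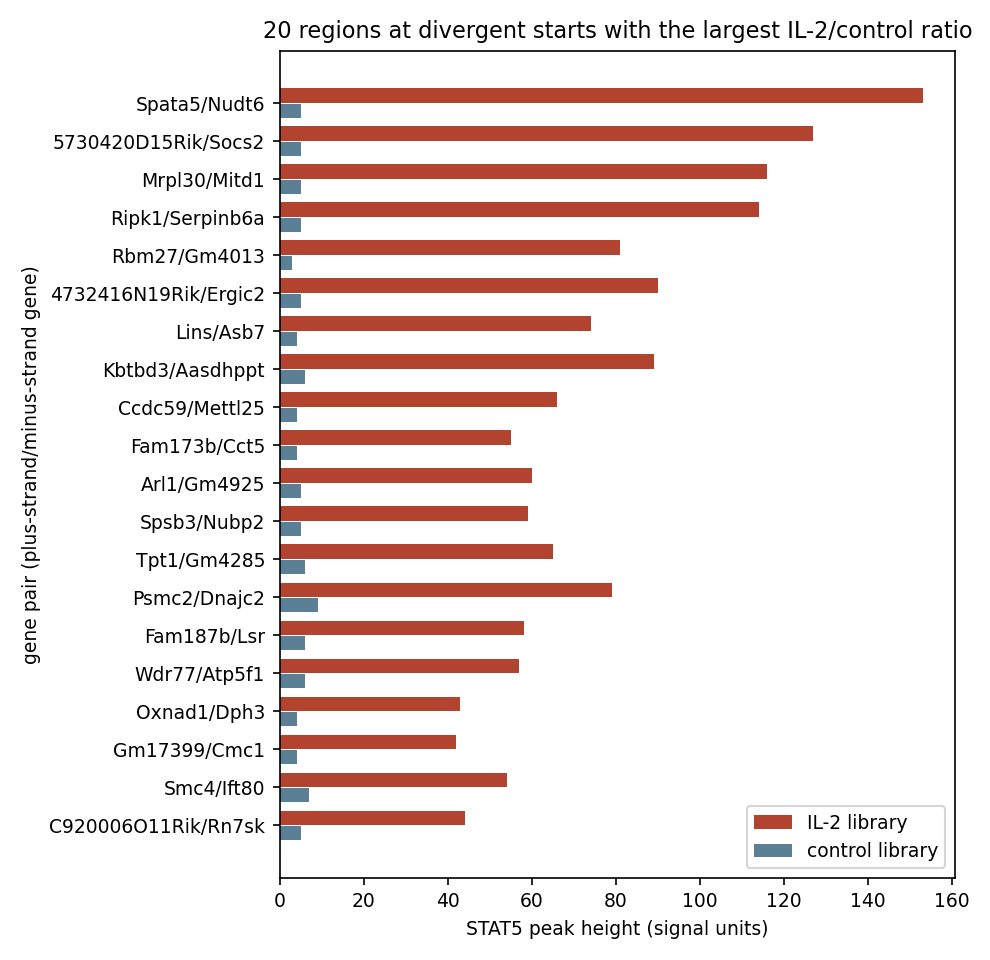
STAT5 peak height (horizontal axis, signal units) in the IL-2 library (upper bar of each pair) and the control library (lower bar) for the 20 regions at divergent starts with the largest ratio, each named by its plus-strand and minus-strand gene; 1 library per group, so there are no error bars. IL-2 heights run from 42 to 153 and control heights from 3 to 9.

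At the other end, 5 regions had log2 ratios of 0.32 to 0.54. Besides the Tyw5 region they were those of Creld2/Alg12 (10 in the IL-2 library and 6 in control), Srsf1/2010015M23Rik (12 in the IL-2 library and 7 in control), 3010003L21Rik/Fam60a (15 in the IL-2 library and 9 in control) and Gpn3/Fam216a (11 in the IL-2 library and 6 in control). Srsf1 encodes a splicing factor, and Alg12 a mannosyltransferase of protein glycosylation. The highest control height was 10, at 4930507D05Rik/Supv3l1, where the IL-2 height was 27. The table listed no control region near either gene of the pair at any of the 229 regions. The number of control regions near other genes is not given here, so this is not a trait of divergent starts.

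The arrangement of the pairs was checked, since the rule asks only for opposite strands. In 182 of the 229 the starts were head to head, with the minus-strand start to the left, and the gap between starts had a median of 196.5 bp (interquartile range 89.3 to 324 bp). In the other 47 the starts overlapped, by a median of 362 bp, and these pairs are not divergent in the strict sense. The median log2 ratio was 1.25 in head-to-head pairs and 1.11 at overlapping starts. The 229 regions fell at 227 pairs, since Skap1/Gm11529 and Sdf4/B3galt6 each held 2. They involved 459 genes, and 5 regions had 3 starts within 1000 bp. Both genes of the nearest pair were protein-coding in 149 regions, and in 52 a protein-coding gene faced a long non-coding RNA. In 23 regions 1 gene was not matched in the RefSeq table, and 5 had another kind of partner, among them Mir191 with Ndufaf3 and Mir207 with Gm6297. Median IL-2 heights were 16 where both genes were coding and 19 where the partner was a long non-coding RNA.

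Regions at head-to-head starts lay in the strict stretch between the starts about as often as an even spread would place them. The position lay between the starts in 33 of 182 (18.1%, Wilson interval 13.2 to 24.4%). If positions were spread evenly over the stretch that the rule allows for each pair, 18.8% would lie there. With 100 bp added on either side the share was 37.4%, and the even-spread share of that wider stretch is not given here. Whether positions gather around the starts is thus not settled by the strict stretch. The other 149 lay inside 1 of the genes, and at overlapping starts 23 of 47 lay inside both genes. Over both arrangements, 88 were inside the plus-strand gene only and 85 inside the minus-strand gene only. Median IL-2 heights were 16 between the starts, 16.5 inside 1 gene and 17 inside both. A height of at least 50 was reached by 2 of 28 regions between the starts and 16 of 140 inside 1 gene. The size of the gap told little of the height, with a Spearman correlation of 0.015 over 147 head-to-head regions, which all share the same 2 libraries. The median distance to the nearer start was 179 bp, and 190 of 229 regions lay within 400 bp. At single starts the median distance was 300 bp, but a region with 2 starts in reach is nearer to one of them by construction.

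**Figure D3:**
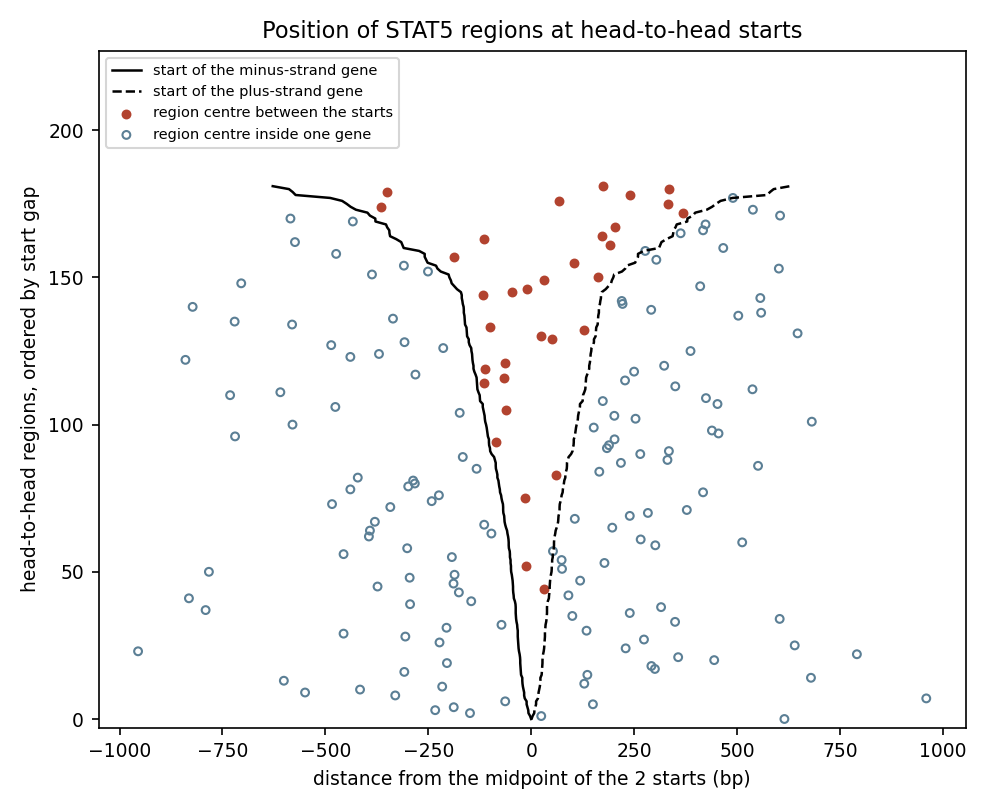
Position of the 182 regions at head-to-head starts (horizontal axis, bp from the midpoint of the starts), ordered upwards by the gap between the starts; the solid line marks the start of the minus-strand gene and the dashed line that of the plus-strand gene. The 33 filled points lie between the starts and the 149 open points inside one of the genes, on both sides.

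Among the regions nearest to both starts were those of Pmm2/Tmem186 (22 in the IL-2 library and 4 in control), Smc6/Gen1 (33 in the IL-2 library and 6 in control), 1700034F02Rik/Rps27a and Jmjd7/LOC101056214. Smc6 is a subunit of the SMC5/6 complex and Gen1 a resolvase of recombination intermediates. Among the farthest from both were those of Hsf2, Cpsf3, Tsen34 and Tubgcp4, with IL-2 heights of 10 to 27. Just inside the limit of 1000 bp lay Zdhhc24/Actn3, with a farther start at 996 bp and heights of 21 in the IL-2 library and 5 in control. Just outside lay Arsg/Slc16a6, with a farther start at 1004 bp and the same 2 heights.

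Genes with a head-to-head start had a STAT5 region near it in a larger share than other genes. In the RefSeq promoter table, 3311 genes had a start with an opposite-strand start at most 1000 bp upstream, and 450 of these genes had a region within 1000 bp (13.6%, Wilson interval 12.5 to 14.8%). Of the other 23714 genes, 1186 had one (5.0%, Wilson interval 4.73 to 5.29%). Among protein-coding genes alone the shares were 15.2% of 2302 genes in head-to-head pairs and 6.75% of 15190 others. Counted by single start, to allow for genes with several, the shares were 12.7% for head-to-head starts and 4.76% for others. A head-to-head gene has its partner's start within 1000 bp, so a region at either start can count for both genes. This raises the head-to-head share by construction, to an extent that was not measured. Neighbouring genes share regions and are not independent, so the intervals cover counting only and the difference was not tested. The CpG content described next moved with the arrangement, and its part in the difference was not tested.

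Promoter windows at these regions were rich in CpG and in the ETS letters and poor in TATA letters, and head-to-head promoters with no region shared most of these traits. In 3255 such windows the median observed over expected CpG was 0.80, and the share with a match was 11.8% for NRF1, 5.13% for YY1, 61.8% for SP1, 41.1% for NF-Y, 3.69% for CRE and 6.30% for TATA. Motifs were searched on both strands of 361 windows from 359 genes near divergent starts, 999 windows at single starts with a region, and all 32851 windows of the table. The median observed over expected CpG was 0.88 at divergent starts, 0.77 at single starts and 0.38 in all windows. The ETS letters CCGGAAG were in 30.5% of windows at divergent starts (Wilson interval 25.9 to 35.4%), against 17.1% at single starts and 8.86% of all. In head-to-head promoters with no region they were in 19.4%. The YY1 letters AAGATGGC were in 8.03% at divergent starts, 4.90% at single starts and 2.75% of all, and the NRF1 motif in 13.3% at divergent starts, 10.8% at single starts and 4.60% of all. The SP1 letters GGGCGG were in 68.4% at divergent starts, 62.3% at single starts and 35.7% of all. The NF-Y letters CCAAT were in 42.4% at divergent starts, 33.9% at single starts and 37.4% of all. The CRE letters TGACGTCA were in 3.88% at divergent starts, 3.20% at single starts and 1.79% of all. The TATA letters TATAAA were in 3.88% at divergent starts, against 8.31% at single starts and 13.6% of all. The windows of both genes of a pair often overlap and count the same letters again, and with only the plus-strand gene of each pair the ETS share was 29.9%. The ETS and GAS letters can share bases, as in the Ripk1 window, and did so in 10 windows at divergent starts.

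**Figure D4:**
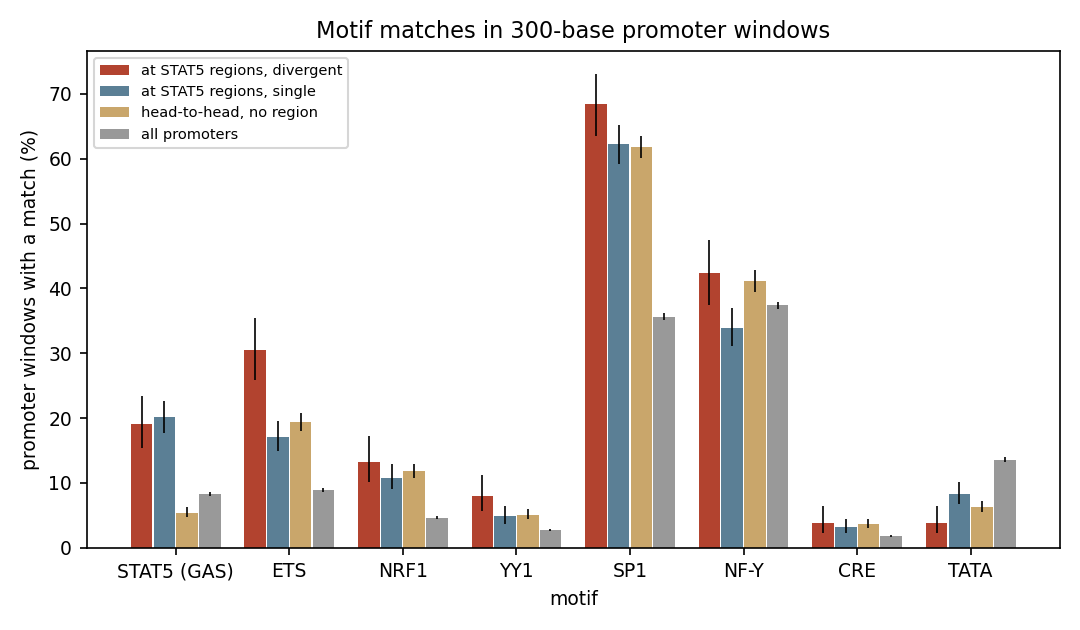
Share of 300-base RefSeq promoter windows (vertical axis, %) with a match to each motif, for windows at STAT5 regions with divergent starts, at STAT5 regions with single starts, at head-to-head starts with no region, and for all windows; error bars are Wilson 95% intervals. GAS matches were in 19.1% and 20.1% of the windows at divergent and single starts with a region, and in 5.41% of head-to-head windows without one.

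The GAS letters TTCNNNGAA were about as frequent at divergent as at single starts with a region, and less frequent in head-to-head windows without one. They were found in 19.1% of windows at divergent starts (Wilson interval 15.4 to 23.5%) and 20.1% at single starts, against 5.41% of head-to-head windows with no region and 8.30% of all. Of the windows at divergent starts, 99 held the region position, and 43.4% of these had the letters. In the 262 that did not hold it the share was 9.92%. Taken by region, 31 of 73 with their position in a window had a match (42.5%, Wilson interval 31.8 to 53.9%), against 121 of 250 at single starts (48.4%, Wilson interval 42.3 to 54.6%). The match centre was a median of 37 bp from the region position at divergent and 36 bp at single starts, and within 100 bp for 27 of the 31. The letters with 4 bases between TTC and GAA were in 8.59% of windows at divergent starts and 6.95% of all.

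Regions at divergent starts with GAS letters had a higher median height in the IL-2 library than those without. Among regions with their position in a window and a known height, the IL-2 height of the 26 with a match was 11 at the lowest, 24.5 at the median and 116 at the highest. The 37 without a match had 10, 14 and 27. The groups overlapped below 28. All 12 regions above 27 had a match, but 27 was taken as the limit because it is the highest height without one. In the control library the medians were 5 with a match and 4 without. A ratio of at least 2 was found for 22 of the 26 with a match and 20 of the 37 without. By IL-2 height, in bands chosen after the heights were seen, the letters were in 4 of 24 regions up to 14, in 9 of 23 from 15 to 24 and in 13 of 16 from 25 upwards. At single starts the IL-2 medians were 21.5 with a match and 15 without, and a region without a match reached 105. A height is known only where a gene had 1 region, and the difference was not tested.

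**Figure D5:**
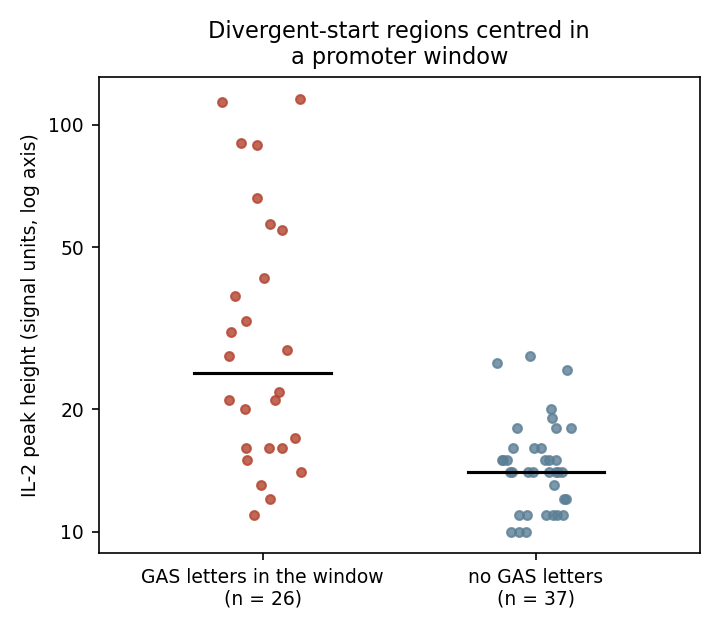
IL-2 peak height (vertical axis, signal units on a log scale) of the 63 regions at divergent starts that have a height and their position inside a promoter window, with the GAS letters in the window (left, 26 regions) or without (right, 37 regions); points are regions, spread sideways at random, and lines are medians of 24.5 and 14. The highest region on the right is at 27, so all regions above 27 are on the left.

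The letters inside the GAS matches varied. Among the matches nearest to the position of the 31 regions, TTCCAGGAA or its reverse complement was found at 7, with IL-2 heights of 20 to 116, and TTCCCGGAA or its reverse complement at 4, with 17 to 114. Matches of the form TTCCNGGAA, a split made after seeing the data, had a median IL-2 height of 35.5 over 10 regions, and the other forms 18.5 over 16. The 2 ranges overlapped, at 17 to 116 and 11 to 89.

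Genes of the lists that fit such promoters were spread over the range of heights. Of 79 genes of RNA processing in the table, 19 had their start at such a region, and 10 of the 14 regions with a height had a ratio of at least 2 (71.4%), against 73% at divergent starts in all. Among these 14, Ddx51, a helicase of ribosome assembly, led with 38 in the IL-2 library and 4 in control, at a region shared with Noc4l. Cpsf2, a subunit of the mRNA cleavage complex, had 34 in the IL-2 library and 6 in control. Polr2b, the second subunit of RNA polymerase II, had 16 in the IL-2 library and 3 in control, and Sf3a2, a splicing factor, had 10 in the IL-2 library and 3 in control. Further regions with a height, among them those at Cpsf7, Taf9, Prpf4, Hnrnpd, Ddx59, Polr3c, Taf1d, Srsf1 and Cpsf3, had 10 to 18 in the IL-2 library and 2 to 7 in control. The median IL-2 height of the 14 was 15, near the 16 of the class. Med20, Prpf31, Ints7, Ddx5 and Srsf11 were at regions with no height of their own. Solved from gene means, the height at Prpf31 was 72 in the IL-2 library and 8 in control, above that at Ddx51.

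The list of DNA repair and replication genes, which also holds known pair partners such as Nbr1, had 6 of its 23 genes in the table at 4 such regions. Brca1, a tumour suppressor of homologous recombination, and Nbr1, an autophagy receptor, shared a region with 20 in the IL-2 library and 1 in control. That control height was the lowest of the class, equalled at Spink10/Fbxo38, and the log2 ratio was 2.06. The mismatch repair gene Msh6 had 16 in the IL-2 library and 5 in control. The region of Smyd4 and Rpa1, a subunit of the single-strand binding protein RPA, had no height of its own.

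Mitochondrial genes were found at both ends. Among the listed mitochondrial ribosome genes 4 of 4 regions had a ratio of at least 2, beside 73% at divergent starts and 80.4% of all regions, and so small a count cannot be set apart from these shares. Besides Mrpl30 these were Mrpl32 and Mrpl48 (each 19 in the IL-2 library, with 4 and 6 in control) and Mrpl18 (12 in the IL-2 library and 3 in control). Of 6 regions at genes of the respiratory chain and import, 5 had such a ratio. After Atp5f1 their IL-2 heights were 18 at Sdhaf2, 16 at Timm9, 15 at Ndufb3 and Ndufaf3 and 10 at Ndufa8, with control heights of 3 to 6. Of 4 chaperone and proteasome regions with a height 3 had such a ratio, with 19 in the IL-2 library and 4 in control at Psma2 and 12 in the IL-2 library and 6 in control near Dnaja1. These counts too are near the shares of 73% and 80.4%.

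Of 41 listed histone genes, 7 were at such regions, and their signal lay near or below the median of the class. The pairs Hist3h2a/Hist3h2bb-ps, Hist1h3f/Hist1h2bh and Hist2h2be/Hist2h2ac had IL-2 heights of 19, 16 and 11, with control heights of 4 to 5. Histone genes are near-identical copies, so their values are uncertain. The region of H2afz had no height. Of 26 ribosomal protein genes 3 were at such regions. Rpl4 had 28 in the IL-2 library and 4 in control, Rps27a 13 in the IL-2 library and 4 in control, and Rpl9 11 in the IL-2 library and 5 in control. Among translation genes Wars, the tryptophan tRNA synthetase, had 42 in the IL-2 library and 7 in control, while Kars and Eif2b4 had 13 and 12 in the IL-2 library and 5 each in control. Gart, an enzyme of purine synthesis, and Son shared a region with 22 in the IL-2 library and 6 in control. Of 5 regions of the ubiquitin system 3 had a ratio of at least 2, beside 73% at divergent starts and 80.4% of all regions, led by Fbxo43 with 46 in the IL-2 library and 7 in control, and including Fbxo38 with 14 in the IL-2 library and 1 in control.

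Of all 4934 genes in the table, 459 (9.30%) had their start at a region of this class. Of 28 known IL-2 STAT5 targets in the table, 1 had its start at such a region, Socs2, and 19 had a region at a single start. Of 52 immune receptor, cytokine and interferon genes, 3 were at such a region and 30 at a single start. The 3 were Tap1 and Psmb9, a classic divergent pair of antigen processing, and Irf2, an interferon regulatory factor. Their genes each had more than 1 region, so these regions have no height of their own. By comparison 19 RNA processing genes were at divergent starts and 23 at single starts. The shares at divergent starts were 3.57% of the listed IL-2 targets, 5.77% of the immune genes and 24.1% of the RNA processing genes, and they were not tested.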

How the data were processed

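STAT5 ChIP-seq was analysed from 1 library of cells given IL-2 and 1 control library, with groups taken from the treatment labels. The deposited table gives, per gene, the mean peak height of each library, a signal whose scaling the sources used here do not state, with the number of regions and their distances to the gene start. Other entries of the deposited table (interval counts and presence flags, each a whole-number score) were read as they stand. BWA and mm10 are named in the submitters' processing notes; the peak caller, read extension and depth were not given in the sources used here, so depth and counting error are unknown. Positions of regions follow from a gene's start and its listed distance. Genes were matched by identifier to RefSeq tables of GRCm38.p6 (436 of 459), and chromosome 18 was not used for promoter windows. Python 3.11.15, pandas 2.3.3 and SciPy 1.17.1 were used, and class assignment, height recovery and motif search were checked on simulated data. Members, the 12 gene lists and the alternatives were chosen with earlier results of these data known. Named regions were the 20 with the largest ratio, the 5 with the lowest, the 5 with the highest control height, the 5 nearest to and farthest from both starts, and those of listed genes, of which a few are not reported here. Columns of other samples' values numbered 0.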

Additional observations from a re-analysis of the deposited data

How the results depend on the processing

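No paired analysis was possible because a single library stands for either group, and no replicate could be left out. The median log2 ratio of 1.22 at divergent starts became 1.74 with a pseudocount of 1 and 0.89 with a pseudocount of 10. It was 1.84 for regions of higher signal only and -0.0287 with the libraries rescaled to equal medians. Under the 5 other settings it stayed within the 95% interval of the median, 1.10 to 1.32, which covers counting over regions only. Regions past the ratio of 2, numbering 135, became 78 under a pseudocount of 10, 10 with rescaling (5.41%, beside 7.08% of all regions), 36 with a ratio of at least 4, 80 with starts within 500 bp, 87 with both genes protein-coding and 79 for regions of higher signal. The last 3 hold fewer regions by construction, and 6 other settings stayed within 1.5 times. Scaling removes an overall difference between the libraries by construction. The number of regions, 229, became 134 with starts within 500 bp and 149 with both genes coding. Their share of start regions, 14.6%, became 11.6% within 500 bp and 18.8% with the starts of the RefSeq promoter windows, which leave out chromosome 18. The share between the starts, 18.1%, became 37.4% with 100 bp added on either side. An even spread would also place more regions in that wider stretch. Its share is not given here, so the 37.4% has no reference. The share of windows with GAS letters, 19.1%, became 8.59% with 4 bases between TTC and GAA and 43.4% for windows that hold the region position. The share of head-to-head genes with a region, 13.6%, became 10.7% within 500 bp, against 3.75% of other genes. Windows that hold the position, 1 gene per pair, RefSeq starts for the share between the starts and 1 region per pair were chosen after seeing the data. A window around the region centre was not run, since no genome was used here. Solving heights from the gene means added 4 regions, among them Prpf31/Tfpt with 72 in the IL-2 library and 8 in control.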

Other observations

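Of the 1319 regions at a single listed start, 98 had RefSeq starts of both strands within 1000 bp, so more regions lie at opposite-strand starts than the deposited table lists. Of the 229 regions described here, 160 had RefSeq starts of both strands within that distance. By RefSeq starts, 25 of 125 head-to-head regions lay between the starts (20%). The RefSeq starts in these counts are those of the promoter windows. These lack some genes, among them Socs2, and chromosome 18, where 5 of the 229 regions lie, so such regions could not be counted.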
